A study of Mus musculus with 9 samples.

Results

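The 9 genes described here encode adhesion molecules that leukocytes use to leave the blood and move through tissue: the integrin alpha subunits Itgam, Itgax, Itgal and Itga4, the integrin beta subunits Itgb1, Itgb2 and Itgb7, the selectin ligand gene Selplg, and Icam1, a ligand of beta2 integrins. They were taken by symbol, as every probe set that the platform annotation assigns to exactly 1 of these genes, with no measured value used in the choice. This gave 19 of the 45101 probe sets of the table, 6 for Itgb1, 5 for Itga4, 2 for Itgal and 1 for each other gene. Within the gene-level table, in which the brightest probe set stands for a gene, they are 9 of 18193 genes.

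The data are 9 Affymetrix mouse arrays, each with RNA of cells sorted from inflamed lung. All donors were female 4get mice on a BALB/c background, aged 6 to 8 weeks, in which a green fluorescent protein reports transcription of Il4. Each received 0.5 µg of recombinant IL-25, a cytokine that starts type 2 inflammation, by tracheal injection of 50 µL on each of 4 days, so there was no untreated group. After collagenase digestion of the lungs and magnetic enrichment for CD11b, each replicate pooled 4 donors, and 400000 cells were sorted per population. All 4 gates required CD11b. T2M (type 2 myeloid) cells, with 3 arrays, were positive for the IL-4/GFP reporter and for F4/80, a macrophage antigen, MHCIIlo, Gr-1mid, and negative for IL-5rα, the interleukin 5 receptor chain. The other 3 populations, with 2 arrays each, were negative for the reporter. Eosinophils were gated as Gr-1hi, MHCIIlo cells with IL-5rα and without F4/80. Neutrophils were gated as Gr-1+, MHCIIlo cells without F4/80 or IL-5rα. Macrophages were gated as MHCII+ cells with F4/80 and without Gr-1 or IL-5rα. The study set T2M cells against the other myeloid populations. The p-values below take each array as a separate pool. The labels give replicate numbers, and for the macrophage-labelled pair it could not be settled whether the arrays hold separate pools.

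An integrin is a pair of 1 alpha and 1 beta chain. The beta2 chain (Itgb2, CD18) pairs with the alpha chains L (Itgal, giving LFA-1), M (Itgam, giving Mac-1) and X (Itgax, CD11c), and these bind ICAM-1 and complement fragments. The alpha4 chain (Itga4) pairs with beta1 (Itgb1) to give VLA-4, which binds VCAM-1 and fibronectin, or with beta7 (Itgb7) to give the receptor of the mucosal addressin MAdCAM-1. Selplg encodes PSGL-1, which carries sugars that selectins grip while a leukocyte rolls on the vessel wall, before integrins arrest it. VLA-4 is known for its part in the entry of eosinophils into tissue, and beta2 integrins for that of neutrophils.

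The 3 genes with a difference past the test were Icam1, Itgb7 and Itgb1, and the RefSeq sequence of the 250 bases before each of their start sites (assembly GRCm38.p6, strand of the gene) is printed to show the DNA next to which these transcripts begin. Capitals mark matches, on either strand, to 4 short motifs known for leukocyte or inflammatory genes: the PU.1 core GAGGAA, the RUNX core TGTGGT, the kappaB pattern GGNNNTTCC and the STAT palindrome TTCNNNGAA. The windows lie at chr9:21015690-21015939 (Icam1, plus strand), chr15:102231936-102232185 (Itgb7, minus strand) and chr8:128685404-128685653 (Itgb1, plus strand).
Icam1: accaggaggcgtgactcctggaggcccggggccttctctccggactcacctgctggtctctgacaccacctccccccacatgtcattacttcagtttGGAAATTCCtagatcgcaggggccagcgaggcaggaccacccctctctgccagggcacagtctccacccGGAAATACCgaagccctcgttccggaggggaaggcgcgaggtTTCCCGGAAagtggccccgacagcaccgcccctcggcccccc
Itgb7: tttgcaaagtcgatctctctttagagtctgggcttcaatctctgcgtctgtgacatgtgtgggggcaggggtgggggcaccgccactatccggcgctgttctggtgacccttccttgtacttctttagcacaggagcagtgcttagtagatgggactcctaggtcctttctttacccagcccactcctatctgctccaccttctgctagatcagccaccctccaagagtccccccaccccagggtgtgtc
Itgb1: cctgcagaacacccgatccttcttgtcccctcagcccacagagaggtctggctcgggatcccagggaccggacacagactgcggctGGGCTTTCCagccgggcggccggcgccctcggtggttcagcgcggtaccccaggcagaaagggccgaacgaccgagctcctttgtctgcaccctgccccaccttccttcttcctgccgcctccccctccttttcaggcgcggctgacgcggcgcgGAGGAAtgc
The Icam1 window held 2 kappaB matches, with first bases at -153 and -84 from the start site, and a STAT match at -42. The Itgb1 window held a PU.1 match at -9 and a kappaB match at -164, and the Itgb7 window held none of the 4. Among 32851 promoter windows of the same length, 15.7% held the kappaB pattern, 7.02% the STAT palindrome, 23.3% the PU.1 core and 14.0% the RUNX core. The promoter table held 6 of the 9 genes. Of the other 3 windows, Itgam had PU.1 matches at -84 and -15, Itga4 had a RUNX match at -60, and Itgax had none. A match describes letters and is not a measured binding site. In the RefSeq gene order Itgam and Itgax lie next to each other on chromosome 7, followed by Itgad, and Icam1 is followed by Icam4 and Icam5 on chromosome 9.

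Populations are named by the label of their arrays, because marker genes went against some labels. Of 8 eosinophil markers 7 were measured, and their mean log2 level per array was 9.18 to 9.62 on T2M-labelled arrays against 6.06 to 6.87 on eosinophil-labelled arrays, where Epx and Gata1 lay below the array median. Of 10 neutrophil markers 9 were measured, with means of 11.37 to 11.79 on eosinophil-labelled arrays, 7.88 to 9.31 on neutrophil-labelled, 7.68 to 8.75 on T2M-labelled and 6.88 to 7.64 on macrophage-labelled arrays. The mean of the macrophage and monocyte list (9 of 10 measured) was highest on neutrophil-labelled arrays at 10.41 to 10.49, against 8.81 to 8.95 on macrophage-labelled arrays. Of these 9 genes, 2 were called higher on the neutrophil than on the macrophage label and 7 were not called. Cd68 (12.14 against 11.71), Cx3cr1 (10.58 against 10.04) and Adgre1 (9.76 against 9.66) had the higher mean on the macrophage label, and the remaining members on the neutrophil label. The dendritic cell list (6 of 7) was highest on macrophage-labelled arrays at 8.13 to 8.39, against at most 6.82 elsewhere. Arrays of 1 label correlated at 0.915 to 0.994 and arrays of different labels at 0.865 to 0.954. The upper value of 0.994 belongs to the macrophage-labelled pair. Whether these arrays hold separate pools or 1 RNA could not be settled, so results are also given with that pair counted as 1 sample. The actin control probe sets read higher at the 3′ than at the 5′ end on T2M replicate 1 (0.61) and eosinophil-labelled replicate 1 (0.54), with -0.10 to 0.03 on the other 7 arrays. The GAPDH control probe sets read higher at the 3′ end on every array, by 3.43, 2.35 and 2.97 on T2M-labelled arrays. The GAPDH difference was 2.41 and 1.09 on eosinophil-labelled, 2.2 and 1.45 on neutrophil-labelled and 1.02 and 1.2 on macrophage-labelled arrays. Its part in the comparisons of labels was not tested.

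Of 54 differences between labels, 9 genes in 6 comparisons, 8 were called, and all 8 had the eosinophil-labelled arrays on 1 side. Icam1 was higher on these arrays than on each other label, Itgb7 was lower than on each other label, and Itgb1 was lower than on neutrophil- and macrophage-labelled arrays. The other 6 genes had no called difference. A difference was called where limma gave an adjusted p (Benjamini-Hochberg, across the 18193 genes) under 0.05, and differences are log2 values, where 1 means 2-fold. In sorted bulk samples, fewer cells of a type and less RNA per cell cannot be told apart. The 3 comparisons with the eosinophil label share those 2 arrays, so their calls are not independent of each other.

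**Figure D1:**
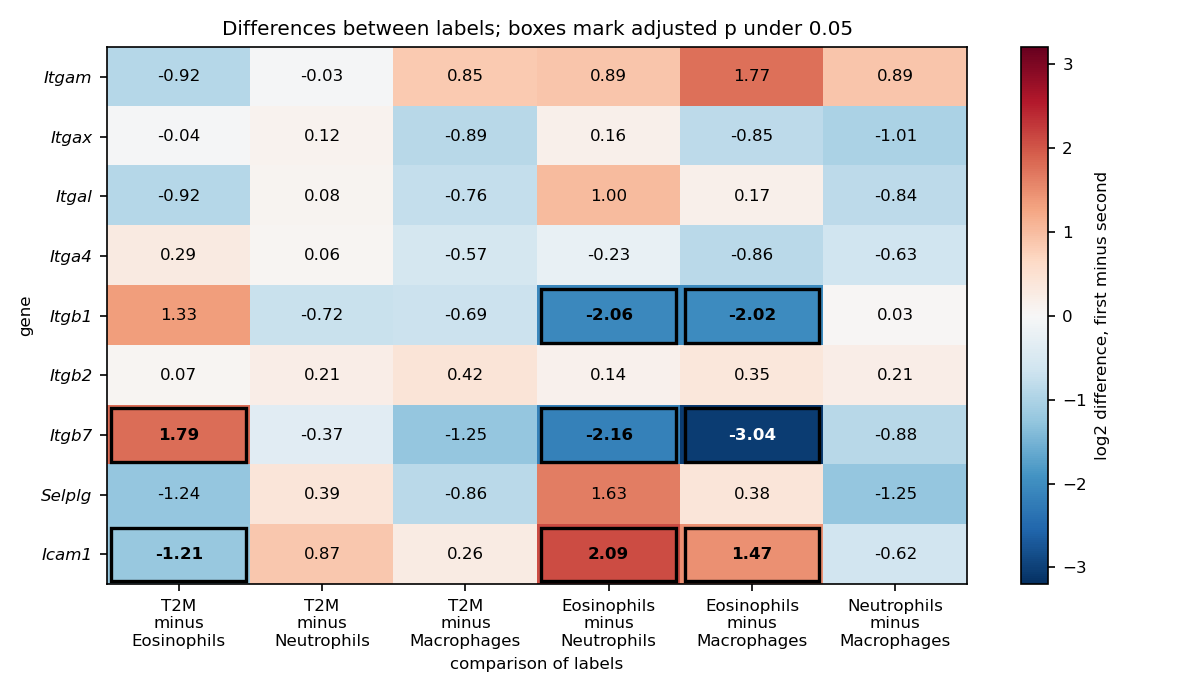
Log2 difference (first label minus second, limma) of the 9 adhesion genes in the 6 comparisons of labels, as colour and number, with a black box where the adjusted p was under 0.05. The 8 boxes lie in the 3 columns that contain eosinophil-labelled arrays, in the rows of Itgb1, Itgb7 and Icam1.

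Against these counts stands the background over all genes. Between T2M- and eosinophil-labelled arrays 2 of the 9 genes were called, Itgb7 higher and Icam1 lower in T2M, where 4.46% of all genes were called, 1.57% higher and 2.89% lower. Between eosinophil- and neutrophil-labelled arrays 3 were called, Icam1 higher and Itgb1 and Itgb7 lower, against 7.88% of all genes, 3.55% higher and 4.33% lower. Between eosinophil- and macrophage-labelled arrays the same 3 symbols were called in the same directions, against 17.4% of all genes, 5.89% higher and 11.5% lower. Limma called 0 of 9 between T2M- and neutrophil-labelled arrays (1 at an unadjusted p under 0.05), where 2.82% of genes were called, 1.25% higher and 1.57% lower. It called 0 of 9 between T2M- and macrophage-labelled arrays (3 unadjusted), where 17.2% of genes were called, 6.53% higher and 10.6% lower. It also called 0 of 9 between neutrophil- and macrophage-labelled arrays (2 unadjusted), where 2.26% were called, 1.13% in each direction. The share of all genes at the unadjusted threshold was not counted, so the unadjusted counts have no background beside them.

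Single arrays moved these counts, and the counts over all genes moved too. Without T2M replicate 2 or 3, 395 and 397 of 18193 genes were called for T2M minus eosinophils, in place of 812. Without T2M replicate 1, 3026 were called for T2M minus macrophages, in place of 3123. Leaving out an array of another label leaves 1 array in it. The counts from those fits are not set beside a share of all genes and are not read as a result about the 9 genes. The count of 2 for T2M against eosinophils became 0 without T2M replicate 2 or 3, without either eosinophil-labelled array or without either macrophage-labelled array. The count of 3 for eosinophils against neutrophils became 1 without either eosinophil-labelled array, either macrophage-labelled array or neutrophil-labelled replicate 1, with Icam1 as the remaining call each time. For eosinophils against macrophages it became 1, Itgb7, without either macrophage-labelled array. The count of 0 for T2M against macrophages became 3 (Itgax, Itgal and Itgb7) without either neutrophil-labelled array and 1 (Itgam) without T2M replicate 1, and that for neutrophils against macrophages became 2 (Itgax and Itgal) without neutrophil-labelled replicate 2.

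The median difference of the 9 genes was -0.04 for T2M minus eosinophils, beside 0.06 over all genes. It was 0.08 beside -0.03 for T2M minus neutrophils and -0.69 beside 0.18 for T2M minus macrophages. For eosinophils it was 0.16 beside -0.07 against neutrophils and 0.17 beside 0.18 against macrophages, and for neutrophils minus macrophages -0.63 beside 0.17. The median of the 9 genes thus lay below that of all genes for T2M and for neutrophils against macrophages, with none of the 9 called in either. Shifting the arrays to a common median moved the median of all genes for T2M minus macrophages from 0.18 to 0.03, and then Itgal (-0.90) and Itgb7 (-1.39) were called lower in T2M, with limma adjusted p = 0.0494 and 0.0378. The arrays of both labels did not overlap for 5, 3, 6, 6, 8 and 8 of the 9 genes in the 6 comparisons in the order above, where 33.5%, 25.8%, 68.4%, 40.4%, 77.8% and 59.8% of all genes did not overlap.

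**Figure D2:**
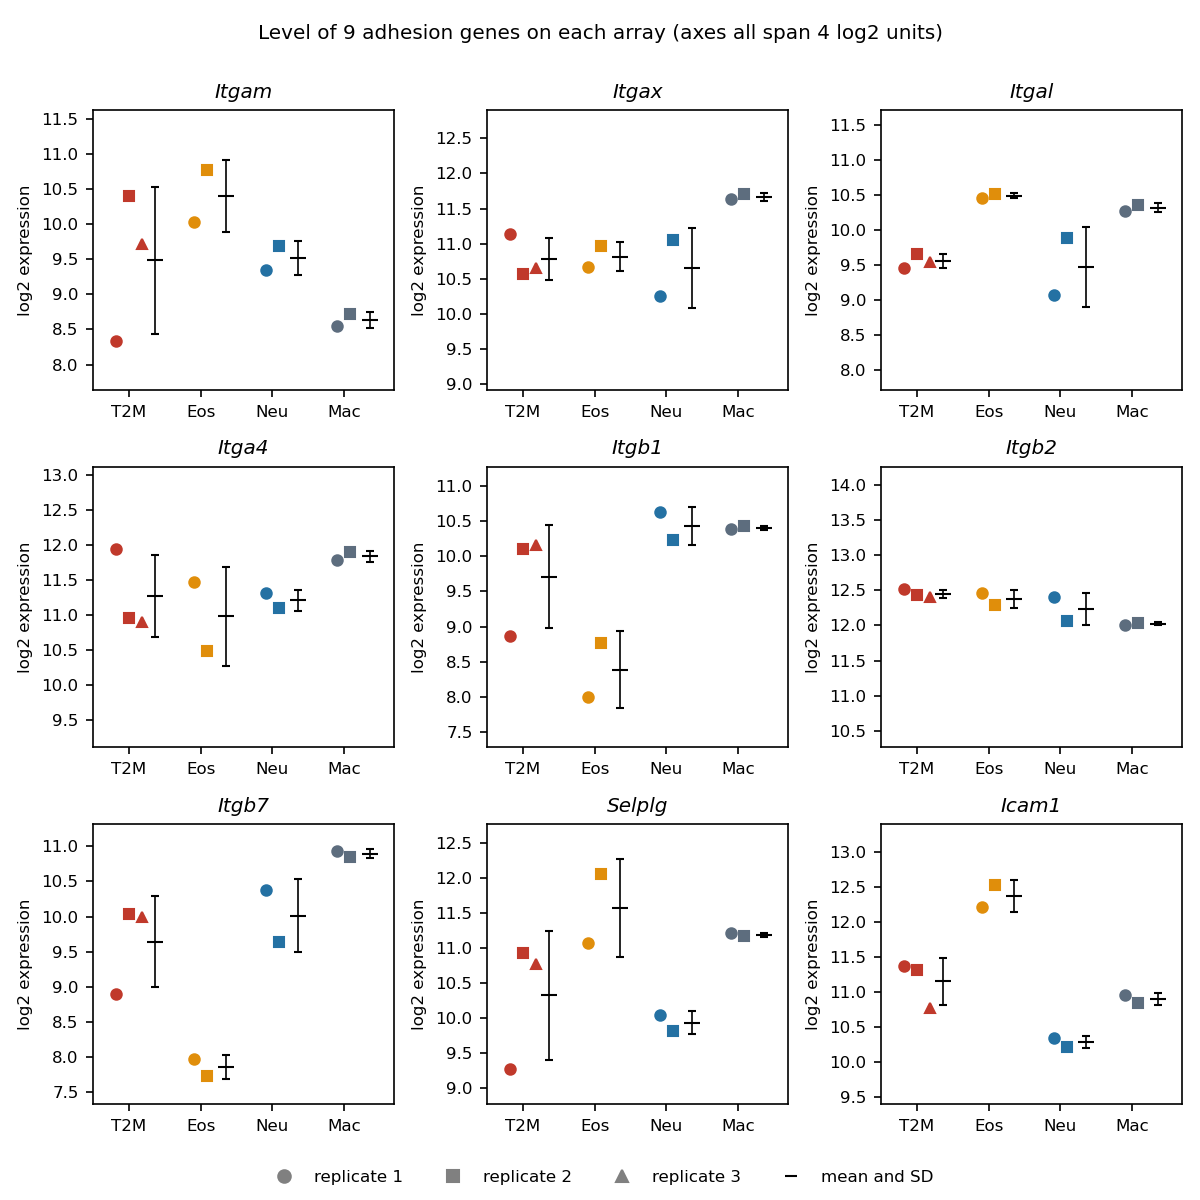
Deposited log2 expression of each of the 9 genes (kept probe set) on each array, by label (T2M, Eos for eosinophils, Neu for neutrophils, Mac for macrophages), with symbols for replicate numbers and a bar for the mean and SD (n = 3 for T2M, 2 for the others). Both eosinophil-labelled arrays lie above all others for Icam1 and below all others for Itgb7 and Itgb1, while Itgb2 spans 12.01 to 12.52 over all arrays.

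Icam1 encodes the immunoglobulin-family ligand that LFA-1 and Mac-1 bind, and is known to be induced by inflammatory cytokines on many cell types. Its log2 level was 12.21 and 12.53 on the eosinophil-labelled arrays and 11.37, 11.32 and 10.77 on the T2M-labelled arrays. It was 10.96 and 10.84 on the macrophage-labelled arrays and 10.34 and 10.22 on the neutrophil-labelled arrays. The eosinophil-labelled arrays thus stood above every other array and the neutrophil-labelled arrays below every other, while T2M and macrophage arrays overlapped. By label the means were 12.37 ± 0.23 (SD, n = 2) for eosinophils, 11.16 ± 0.33 (n = 3) for T2M, 10.90 ± 0.09 (n = 2) for macrophages and 10.28 ± 0.09 (n = 2) for neutrophils.

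Icam1 was 4.25-fold higher on eosinophil- than on neutrophil-labelled arrays (log2 difference 2.09, SE 0.28, limma adjusted p = 0.0048). It was 2.77-fold higher than on macrophage-labelled arrays (1.47, SE 0.28, limma adjusted p = 0.00959) and 2.32-fold lower on T2M- than on eosinophil-labelled arrays (-1.21, SE 0.25, limma adjusted p = 0.0362). In the order of means, the neighbours T2M and macrophages (0.26, 95% interval -0.33 to 0.84) and neutrophils and macrophages (-0.62, adjusted p = 0.278 in limma) did not differ by the test, nor did T2M and neutrophils (0.87, adjusted p = 0.122 in limma). The call against neutrophils held without any 1 array, with differences of 1.93 to 2.25. It was lost with the 4 arrays of both labels fitted alone (adjusted p = 0.0601). The call against macrophages ended without eosinophil-labelled replicate 2 (1.31, adjusted p = 0.0591) and without macrophage-labelled replicate 1 (1.53, adjusted p = 0.0746) or 2 (1.41, adjusted p = 0.0823) in limma, and with those arrays averaged (adjusted p = 0.0794). That for T2M minus eosinophils ended without T2M replicate 2 (-1.30, adjusted p = 0.0752) or 3 (-1.02, adjusted p = 0.0916), without eosinophil-labelled replicate 1 (-1.37, adjusted p = 0.079) or 2 (-1.05, adjusted p = 0.224), and without either macrophage-labelled array (-1.21, adjusted p = 0.0924). It was also lost under 5 other ways of processing (limma adjusted p from 0.0548 with quantile normalization to 0.137 with the replicate number as a block). The neutrophil marker list was also highest on the eosinophil-labelled arrays, and its part in the Icam1 values was not tested.

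Itgb7 encodes the beta chain that alpha4 uses to bind MAdCAM-1, and that alpha E uses to bind E-cadherin. Its log2 level was 7.97 and 7.73 on the eosinophil-labelled arrays and 8.90, 10.04 and 9.99 on the T2M-labelled arrays. It was 10.38 and 9.64 on the neutrophil-labelled arrays and 10.94 and 10.85 on the macrophage-labelled arrays. The eosinophil-labelled arrays were the lowest and the macrophage-labelled arrays the highest, with the T2M and neutrophil arrays overlapping between them. The means were 7.85 ± 0.17 (SD, n = 2), 9.64 ± 0.64 (n = 3), 10.01 ± 0.52 (n = 2) and 10.89 ± 0.06 (n = 2) in that order of labels.

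Itgb7 had the largest difference of the 9 genes, 8.23-fold lower on eosinophil- than on macrophage-labelled arrays (-3.04, SE 0.42, limma adjusted p = 0.00257). This call held without any 1 array (-3.16 to -2.92) and under each of 11 other ways of processing (adjusted p up to 0.0301). The level was 4.47-fold lower than on neutrophil-labelled arrays (-2.16, SE 0.42, limma adjusted p = 0.0205) and T2M was 3.46-fold above eosinophils (1.79, SE 0.39, limma adjusted p = 0.0414). T2M minus macrophages was -1.25 with limma adjusted p = 0.0595, and T2M minus neutrophils was -0.37 (95% interval -1.26 to 0.52). For the neighbours at the top of the order, neutrophils minus macrophages was -0.88 (limma adjusted p = 0.298). The call against neutrophils ended in limma without eosinophil-labelled replicate 1 (-2.28, adjusted p = 0.0672) or 2 (-2.04, adjusted p = 0.1), without either macrophage-labelled array (-2.16, adjusted p = 0.0502) and without neutrophil-labelled replicate 1 (-1.79, adjusted p = 0.0683). It was also lost with the arrays of both labels fitted alone (limma adjusted p = 0.0726) and with the macrophage arrays averaged (adjusted p = 0.0502). That for T2M minus eosinophils ended without T2M replicate 2 (1.59, adjusted p = 0.114) or 3 (1.62, adjusted p = 0.114), without eosinophil-labelled replicate 1 (1.91, adjusted p = 0.109) or 2 (1.67, adjusted p = 0.223), and without either macrophage-labelled array (1.79, adjusted p = 0.0934). It was also lost under 6 other ways of processing (limma adjusted p from 0.0507 with a trended robust prior to 0.147 with the replicate number as a block). The dendritic cell list was highest on the macrophage-labelled arrays, where Itgb7 was highest as well, and its part in these values was not tested.

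Itgb1 encodes the beta chain shared by VLA-4 and the collagen, laminin and fibronectin receptors. On the kept probe set its log2 level was 8.00 and 8.77 on the eosinophil-labelled arrays and 8.86, 10.10 and 10.17 on the T2M-labelled arrays. It was 10.39 and 10.43 on the macrophage-labelled arrays and 10.63 and 10.24 on the neutrophil-labelled arrays. Eosinophil-labelled arrays were lowest, and T2M replicate 1 lay closer to them than to the other T2M arrays. The means were 8.38 ± 0.54 (SD, n = 2), 9.71 ± 0.74 (n = 3), 10.41 ± 0.03 (n = 2) and 10.44 ± 0.28 (n = 2) in that order.

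Itgb1 was 4.16-fold lower on eosinophil- than on neutrophil-labelled arrays (-2.06, SE 0.47, limma adjusted p = 0.0348) and 4.07-fold lower than on macrophage-labelled arrays (-2.02, SE 0.47, limma adjusted p = 0.0214). T2M lay 1.33 above eosinophils with limma adjusted p = 0.143, and this was called without T2M replicate 1 (1.76, limma adjusted p = 0.0237). Neutrophils and macrophages differed by 0.03 (95% interval -1.04 to 1.11), and T2M minus macrophages was -0.69 (95% interval -1.67 to 0.29). The call against neutrophils ended in limma without eosinophil-labelled replicate 1 (-1.67, adjusted p = 0.16) or 2 (-2.44, adjusted p = 0.0625), either macrophage-labelled array (-2.06, adjusted p = 0.0741), and neutrophil-labelled replicate 1 (-1.86, adjusted p = 0.105) or 2 (-2.25, adjusted p = 0.0645). It was also lost with quantile normalization (-1.97, limma adjusted p = 0.0514), with array weights (adjusted p = 0.0859), with the arrays of both labels fitted alone (adjusted p = 0.0849) and with the macrophage arrays averaged (adjusted p = 0.0741). That against macrophages ended without eosinophil-labelled replicate 1 (-1.64, adjusted p = 0.111) and without macrophage-labelled replicate 1 (-2.04, adjusted p = 0.126) or 2 (-2.0, adjusted p = 0.119), and with those arrays averaged (limma adjusted p = 0.123).

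The 6 probe sets of Itgb1 differed in what they showed. Probe set 1452545_a_at was the one kept for the gene. On 1426918_at the log2 level was 8.15 and 8.40 on eosinophil-labelled, 8.56, 7.52 and 8.09 on T2M-labelled, 10.06 and 10.12 on macrophage-labelled and 9.07 and 10.31 on neutrophil-labelled arrays. Here T2M sat with the eosinophil label, at a difference of -0.22 in place of 1.33. T2M was then called 4.11-fold below macrophages (-2.04, SE 0.42, limma adjusted p = 0.0199 over 45037 probe sets), which the kept probe set did not show. Both probe sets were called lower on eosinophil- than on macrophage-labelled arrays, at -2.02 and -1.82. For eosinophils minus neutrophils the kept probe set was called at -2.06, and 1426918_at gave -1.42 without a call (limma adjusted p = 0.126). No other Itgb1 probe set was called there. Of the others, 1427771_x_at ran from 5.90 to 7.64 with no called difference, 1426919_at from 4.59 to 6.51 and 1426920_x_at from 4.61 to 6.65, and 1438119_at stayed between 2.45 and 2.76, below the median of every array. With the mean of all 6 probe sets in place of the kept one, the difference of eosinophils minus macrophages was -0.72 and not called (limma adjusted p = 0.0516), and that of eosinophils minus neutrophils was -0.95 and called.

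**Figure D3:**
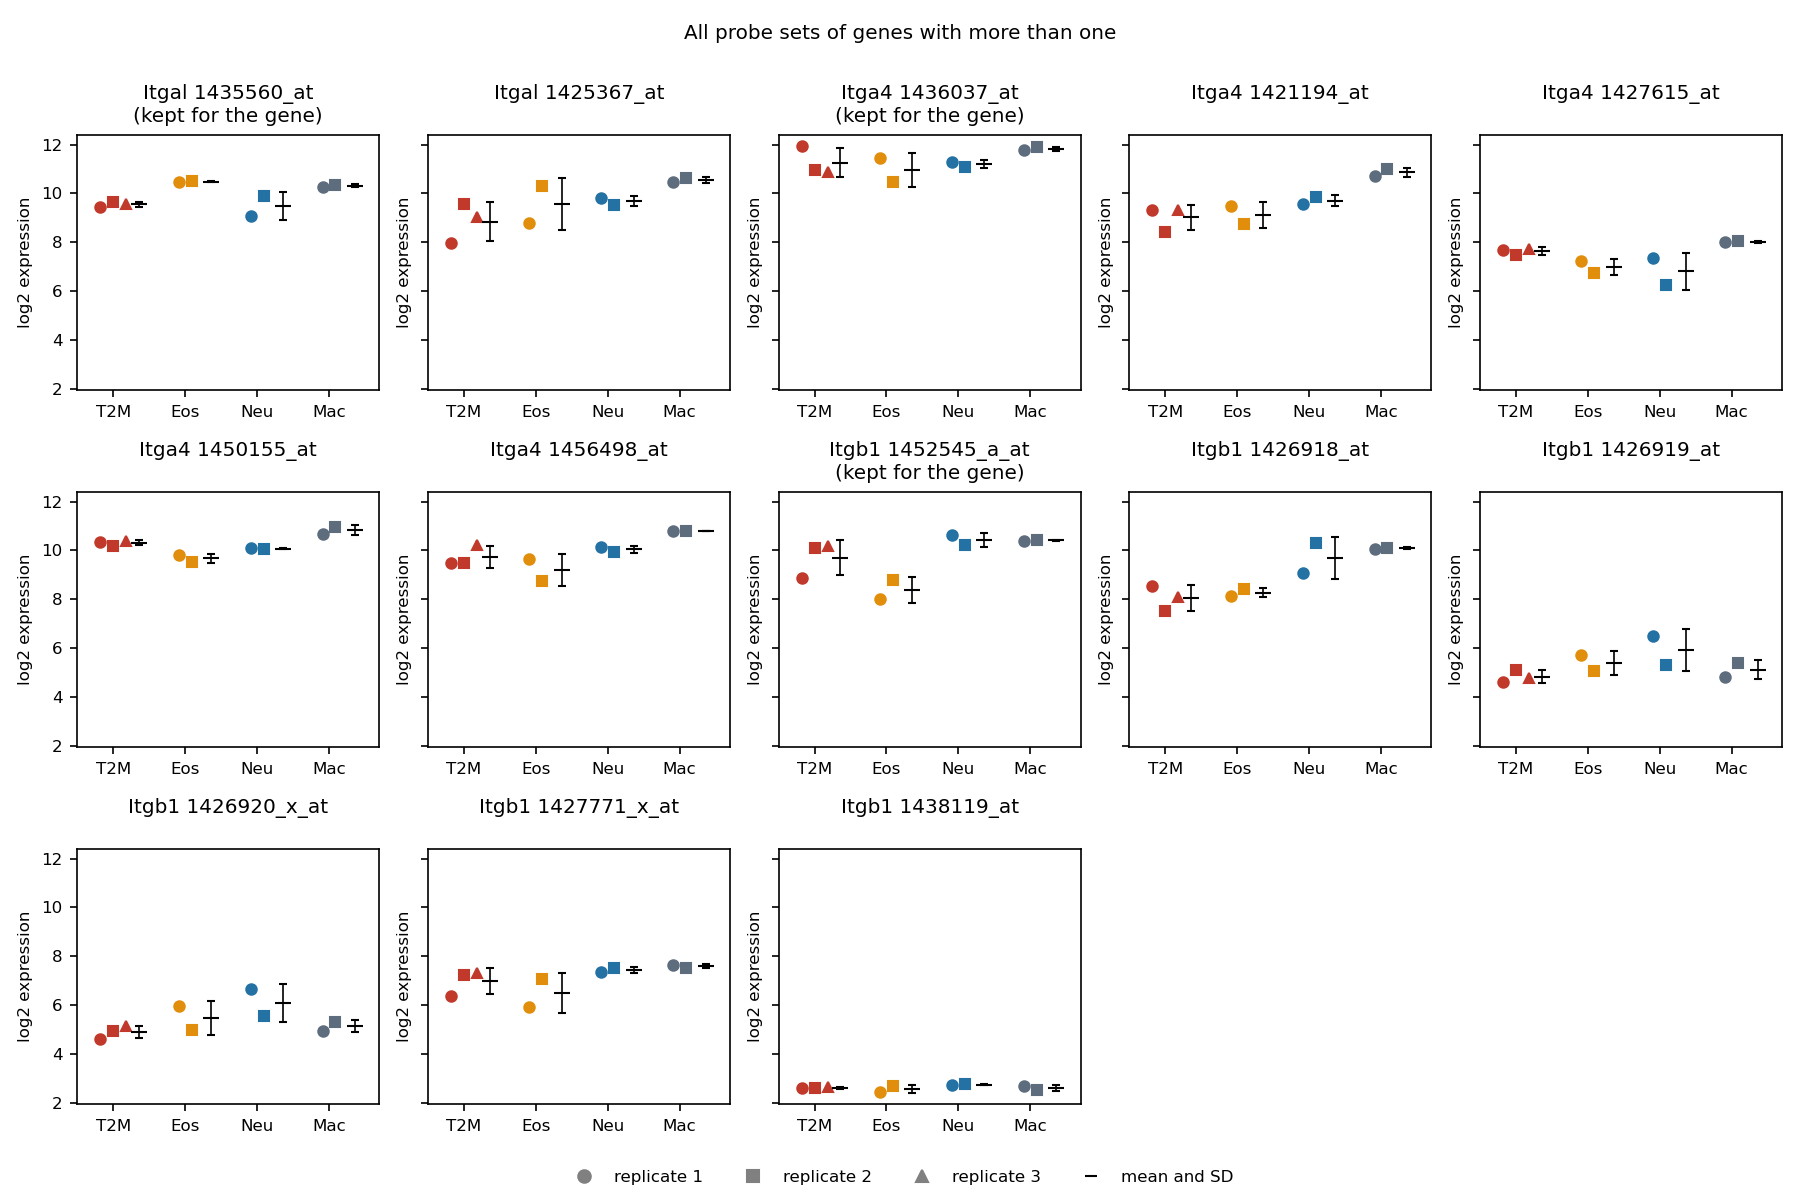
Deposited log2 expression on each array for every probe set of the 3 genes with more than 1, on a shared axis, by label (T2M, Eos for eosinophils, Neu for neutrophils, Mac for macrophages), with the mean and SD as bars. The mean of T2M minus that of eosinophil-labelled arrays is 1.33 on Itgb1 1452545_a_at and -0.22 on 1426918_at, and the macrophage-labelled mean is the highest of the 4 on each Itga4 probe set.

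Over all 19 probe sets taken singly, 13 of 114 differences were called, 11 of them with eosinophil-labelled arrays. Between eosinophil- and macrophage-labelled arrays 7 of the 19 were called, where 12.9% of all probe sets were. For eosinophils against neutrophils it was 3 against a background of 5.68%, for T2M against macrophages 2 against 12.6%, and for T2M against eosinophils 1 against 3.16%, which was Icam1 (limma adjusted p = 0.0449). For T2M against neutrophils (1.79% of probe sets) and neutrophils against macrophages (1.5%) limma called 0 of 19. At an unadjusted p under 0.05 there were 5 and 5. The share of all probe sets at that unadjusted threshold was not counted, so these are not read as an excess. Probe sets of 1 gene share its transcript and are not replicates.

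Itga4 encodes the alpha4 chain of VLA-4 and of the MAdCAM-1 receptor. On the kept probe set, 1436037_at, its log2 level was 11.94, 10.95 and 10.90 on the T2M-labelled arrays and 11.47 and 10.48 on the eosinophil-labelled arrays. It was 11.31 and 11.10 on the neutrophil-labelled and 11.78 and 11.89 on the macrophage-labelled arrays. Replicate 1 was about 1 log2 unit above the others of its label in both T2M and eosinophils, which are the arrays with the high actin 3′ to 5′ difference. The means were 11.83 ± 0.08 (SD, n = 2) for macrophages, 11.26 ± 0.59 (n = 3) for T2M, 11.21 ± 0.14 (n = 2) for neutrophils and 10.97 ± 0.70 (n = 2) for eosinophils, and no neighbours in this order differed by the test.

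The other probe sets of Itga4 placed the macrophage-labelled arrays apart. Probe set 1421194_at read at least 10.72 on macrophage-labelled arrays against 8.43 to 9.86 on the other 7, and was called lower in T2M (-1.83, SE 0.36, limma adjusted p = 0.0168) and in eosinophils (-1.74, SE 0.39, limma adjusted p = 0.0247). Probe sets 1450155_at (-1.16) and 1456498_at (-1.60) were also called lower on eosinophil- than on macrophage-labelled arrays, with limma adjusted p = 0.0152 and 0.03. The kept probe set gave -0.86 there without a call (limma adjusted p = 0.204 among genes), and 1427615_at gave -1.03 (limma adjusted p = 0.107). Without both arrays of high actin difference, an alternative chosen after seeing the data, the kept probe set gave -1.35 and was called (limma adjusted p = 0.0264). All 5 probe sets had their highest mean on the macrophage label.

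Itgb2 encodes the beta chain of LFA-1 and Mac-1, whose loss causes leukocyte adhesion deficiency. Its log2 level was 12.52, 12.43 and 12.41 on T2M-labelled, 12.47 and 12.29 on eosinophil-labelled, 12.40 and 12.07 on neutrophil-labelled and 12.01 and 12.04 on macrophage-labelled arrays. The 4 label means, from 12.03 ± 0.02 (SD, n = 2) for macrophages to 12.45 ± 0.06 (n = 3) for T2M, spanned 0.42, the smallest span of the 9 genes. The interval of T2M minus neutrophils ran from -0.26 to 0.69 and that of T2M minus macrophages from -0.05 to 0.90 (95%). No neighbours in the order differed by the test.

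Itgam encodes CD11b, the alpha chain of Mac-1, which was used for enrichment and in every gate, so its presence reflects the sort. Its log2 level was 10.04 and 10.77 on the eosinophil-labelled arrays, 8.34, 10.40 and 9.72 on the T2M-labelled arrays, 9.35 and 9.69 on the neutrophil-labelled and 8.55 and 8.72 on the macrophage-labelled arrays. The T2M arrays spanned more than any other label, with replicate 1 below every other array. The means were 10.41 ± 0.52 (SD, n = 2), 9.49 ± 1.05 (n = 3), 9.52 ± 0.24 (n = 2) and 8.63 ± 0.12 (n = 2). Eosinophils minus macrophages gave 1.77 (SE 0.59, limma adjusted p = 0.076). This was called without T2M replicate 1 (adjusted p = 0.0127) or 2 (adjusted p = 0.0479), and T2M minus macrophages, 0.85 over all arrays, was called without T2M replicate 1 (1.43, adjusted p = 0.0336), all in limma.

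Itgax encodes CD11c, a beta2 partner known for its level on dendritic cells and lung macrophages. Its log2 level was 11.63 and 11.71 on the macrophage-labelled arrays, 11.13, 10.56 and 10.65 on the T2M-labelled, 10.67 and 10.96 on the eosinophil-labelled and 10.25 and 11.05 on the neutrophil-labelled arrays. The macrophage-labelled arrays were above all 7 others, which overlapped among themselves. Relative to macrophages (11.67 ± 0.06, SD, n = 2), T2M gave -0.89 (SE 0.30, limma adjusted p = 0.0772), eosinophils -0.85 (SE 0.33, limma adjusted p = 0.115) and neutrophils -1.01 (SE 0.33, limma adjusted p = 0.182). The T2M value was called without neutrophil-labelled replicate 1 or 2 (adjusted p = 0.0324 in limma each time), and the neutrophil value without neutrophil-labelled replicate 2 (-1.41, limma adjusted p = 0.0304). The other 3 label means were 10.78 ± 0.30 (n = 3) for T2M, 10.81 ± 0.21 (n = 2) for eosinophils and 10.65 ± 0.57 (n = 2) for neutrophils.

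Itgal encodes the alpha chain of LFA-1. On the kept probe set, 1435560_at, its log2 level was 10.46 and 10.51 on eosinophil-labelled, 10.27 and 10.36 on macrophage-labelled, 9.46, 9.66 and 9.55 on T2M-labelled and 9.07 and 9.88 on neutrophil-labelled arrays. The eosinophil and macrophage labels stood above the T2M and neutrophil labels with no overlap. The means were 9.56 ± 0.10 (SD, n = 3) for T2M, 10.48 ± 0.04 (n = 2) for eosinophils, 10.32 ± 0.06 (n = 2) for macrophages and 9.48 ± 0.57 (n = 2) for neutrophils. T2M minus eosinophils was -0.92 (limma adjusted p = 0.103) and T2M minus macrophages -0.76 (limma adjusted p = 0.0837). Eosinophils minus neutrophils was 1.00 (limma adjusted p = 0.0769). Both T2M differences were called without either neutrophil-labelled array (adjusted p = 0.0259 against eosinophils and 0.0202 against macrophages, limma). Without neutrophil-labelled replicate 2, eosinophils minus neutrophils (1.41, limma adjusted p = 0.015) and neutrophils minus macrophages (-1.24, limma adjusted p = 0.0187) were called too.

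The other Itgal probe set, 1425367_at, did not share this order. It read 8.80 and 10.32 on eosinophil-labelled, 10.48 and 10.64 on macrophage-labelled, 7.96, 9.55 and 9.03 on T2M-labelled and 9.83 and 9.53 on neutrophil-labelled arrays. Eosinophils minus macrophages was -1.0 on it and 0.17 on the kept probe set, and eosinophils minus neutrophils -0.12 and 1.00. T2M lay below macrophages on both, with -1.71 on this probe set (limma adjusted p = 0.0753 over probe sets).

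Selplg encodes PSGL-1, the main selectin ligand of leukocytes. Its log2 level was 11.07 and 12.06 on the eosinophil-labelled arrays, 11.21 and 11.17 on the macrophage-labelled, 9.27, 10.93 and 10.77 on the T2M-labelled and 10.05 and 9.82 on the neutrophil-labelled arrays. The T2M arrays lay below all eosinophil- and macrophage-labelled arrays, and T2M replicate 1 was the lowest of all 9. The means were 11.57 ± 0.71 (SD, n = 2), 11.19 ± 0.03 (n = 2), 10.33 ± 0.92 (n = 3) and 9.93 ± 0.16 (n = 2). Eosinophils minus neutrophils was 1.63 (SE 0.56, limma adjusted p = 0.123), and the call appeared without T2M replicate 1 (limma adjusted p = 0.0268). T2M minus eosinophils was -1.24 (limma adjusted p = 0.255, 95% interval -2.40 to -0.08). T2M replicate 1 was the lowest T2M array for Itgam, Itgal, Itgb1, Itgb7 and Selplg and the highest for Itga4, Itgax, Itgb2 and Icam1.

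For genes whose label means spanned at least 1, the 3 genes with the most similar profile over the 9 arrays were found by the root mean square difference of log2 profiles centred on their own mean. For Icam1 they were Tnip1 (0.28), Gtdc1 (0.30) and Cebpd (0.31), for Itgb7 Prps2 (0.36), Ppdpf (0.39) and Lancl1 (0.40), and for Itgb1 Mlec (0.22), Smarca4 (0.27) and Rpsa (0.27). For Itgam they were Rhbdf2 (0.26), Kpna4 (0.27) and Plaur (0.29), and for Selplg Rasgrp4 (0.22), Ccdc88b (0.30) and Pdlim2 (0.30). Itgax had Csrnp2 (0.11), Pms1 (0.14) and Rnf214 (0.15), and Itgal had Secisbp2 (0.16), Prr14 (0.17) and Tbl1xr1 (0.17). None of the 9 genes was among the nearest of another. The arrays share labels and RNA quality, so this is a description of likeness only.

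The rest of the adhesion machinery was read from 7 lists with 82 measured genes. Against eosinophils, T2M had 2 of these higher and 5 lower, against neutrophils 6 higher and 0 lower, and against macrophages 17 higher and 5 lower. Eosinophils had 6 higher and 1 lower than neutrophils and 15 higher and 1 lower than macrophages, and neutrophils 3 higher and 1 lower than macrophages. Over all genes, T2M had 1.57% higher and 2.89% lower than eosinophils, 1.25% and 1.57% than neutrophils, and 6.53% and 10.6% than macrophages. Eosinophils had 3.55% higher and 4.33% lower than neutrophils and 5.89% and 11.5% than macrophages, and neutrophils 1.13% each way against macrophages. Median differences of the 82 genes were 0.04, 0.02 and 0.25 for T2M against eosinophils, neutrophils and macrophages, beside 0.06, -0.03 and 0.18 over all genes, and 0.35, 0.31 and -0.05 for the other comparisons, beside -0.07, 0.18 and 0.17. Alternative processing was run for the 9 genes and not for these lists.

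Selectins and other selectin ligands (8 of 9 measured) had 5 members called higher in T2M than in macrophages and 0 lower, beside 6.53% and 10.6% of all genes. Selp, which encodes P-selectin of platelets and endothelium, was at 10.48 to 11.10 on T2M-labelled arrays, 8.36 and 10.37 on eosinophil-labelled, 7.03 and 9.22 on neutrophil-labelled and 4.20 and 4.49 on macrophage-labelled arrays. The difference of T2M minus macrophages was 6.43 (SE 0.71, limma adjusted p = 0.00135), with no fold given since both macrophage-labelled values lay below their array medians of 5.48 and 5.53. Those against eosinophils (1.42) and neutrophils (2.66) were not called. Sele, the endothelial E-selectin gene, was higher in T2M than in macrophages (4.21, limma adjusted p = 0.00186) and neutrophils (2.68, limma adjusted p = 0.0356), and T2M minus eosinophils was 1.73 (not called). Cd24a, a mucin-like P-selectin ligand, was higher in T2M than in macrophages (3.26) and neutrophils (1.55), with limma adjusted p = 0.000216 and 0.0162. Podxl was higher against macrophages (2.22), and Cd44, the hyaluronan receptor, was lower in T2M than in eosinophils (-1.94, SE 0.34, limma adjusted p = 0.0198). The eosinophil label shared part of this pattern. It had 4 members called higher and 1 lower than macrophages, beside 5.89% and 11.5% of all genes, with Selp (5.02), Cd24a (3.29) and Sele (2.48) among those higher. Cd24a was also called higher in eosinophils than in neutrophils (1.58). The 6 endothelial markers had means per array of 6.44 to 7.64 on T2M-labelled, 6.01 to 6.24 on eosinophil-labelled, 5.68 to 7.12 on neutrophil-labelled and 5.17 to 5.33 on macrophage-labelled arrays. On macrophage-labelled arrays Cdh5, Kdr, Tek and Emcn lay below the median, but Kdr did so on all labels and Emcn also on the neutrophil label. Pecam1 had its lowest label mean on T2M (8.35, against 8.55 to 9.51 elsewhere). The erythroid and platelet list (5 of 6 measured) was at 5.94 to 6.14, 5.88 to 6.15, 5.84 to 5.89 and 4.71 to 4.92 in the same order of labels. Its members did not move together. By label mean, Pf4 was 4.77 on macrophage-labelled arrays and 9.09 to 10.24 elsewhere, while Alas2 was highest there (5.46 against 3.94 to 4.18). Ppbp was 3.01 there and 3.75 to 5.98 elsewhere. Gp9 ran from 6.44 to 6.83 and Hba-a1 from 4.24 to 4.73. The part of such cells in the selectin values was not tested.

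Among 11 enzymes that build the sugars of selectin ligands, Gcnt1 and St3gal6 were the members with called differences. Gcnt1, which makes core 2 branched O-glycans, was at 10.17 to 11.06 on T2M-labelled and 10.07 and 10.43 on eosinophil-labelled arrays, against 5.55 and 7.98 on neutrophil-labelled and 5.74 and 5.95 on macrophage-labelled arrays. T2M exceeded neutrophils (3.97, SE 0.63, limma adjusted p = 0.0211) and macrophages (4.89, SE 0.63, limma adjusted p = 0.00248) in Gcnt1, as did eosinophils (3.49 and 4.40). St3gal6, a sialyltransferase, was at 11.42 and 11.50 on eosinophil-labelled arrays, with no other array above 7.76. It was called 22.8-fold lower in T2M than in eosinophils (-4.51, SE 0.45, limma adjusted p = 0.00239) and higher in eosinophils than in neutrophils (4.12) and macrophages (6.06). The other members with the largest differences, B4galt1 (-1.32) and C1galt1c1 (-1.12) for T2M minus eosinophils, were not called.

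**Figure D4:**
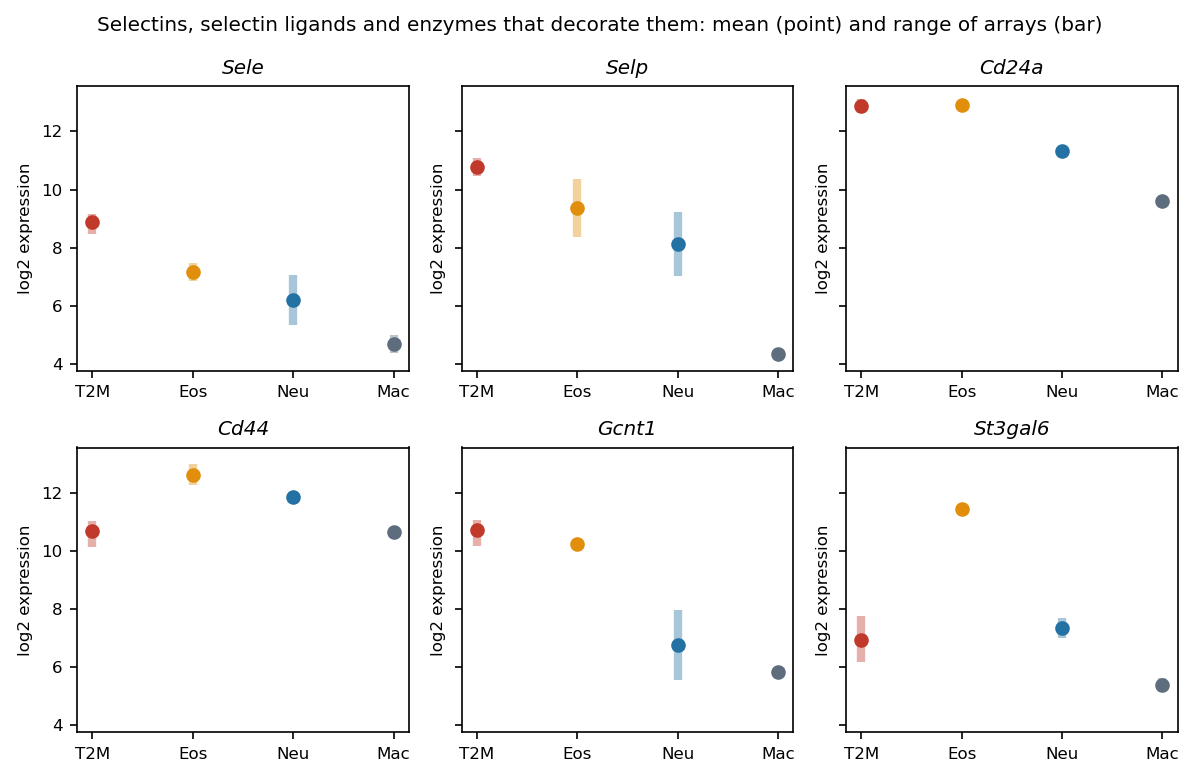
Log2 expression of selectin genes (Sele, Selp), selectin ligands (Cd24a, Cd44) and enzymes that decorate them (Gcnt1, St3gal6) by label (T2M, Eos for eosinophils, Neu for neutrophils, Mac for macrophages), as the mean (point) and the range of arrays (bar, n = 3 for T2M and 2 for the others). Gcnt1 is near 10.74 and 10.25 in T2M and eosinophils and 6.76 and 5.85 in neutrophils and macrophages, and St3gal6 is at 11.46 in eosinophils, with no other label mean above 7.34.

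Of 12 other integrin alpha chains measured, 3 were called higher in T2M than in macrophages, beside 6.53% of all genes. The 3 were Itga6 (3.05, limma adjusted p = 0.00554), a laminin receptor chain, Itga9 (2.01, limma adjusted p = 0.0325) and Itga2 (1.42, limma adjusted p = 0.0433), a collagen receptor chain, while Itgae (1.49) and Itga2b (1.01) were not called. The macrophage-labelled values of Itga6, Itga9 and Itga2 lay below their array medians of 5.48 and 5.53. Itga5, the fibronectin receptor chain, and Itga6 were higher in eosinophils than in macrophages (1.53 and 1.80). Of 6 other beta chains, Itgb2l was called higher in eosinophils than in macrophages (1.47, limma adjusted p = 0.0323).

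Of 10 other integrin ligands, 3 were called higher in T2M than in macrophages, beside 6.53% of all genes. These 3 were Cdh1 (3.60, limma adjusted p = 0.00366), which encodes the E-cadherin bound by the alpha E beta7 integrin, Jam2 (1.95, limma adjusted p = 0.00181) and Vcam1 (1.72, limma adjusted p = 0.0136), which encodes the endothelial ligand of VLA-4. Cdh1 was also higher in eosinophils (4.27) and neutrophils (4.31) than in macrophages, so its lowest level was on the macrophage label. The epithelial list, which contains Cdh1, had means of 8.26 to 8.97 on T2M-labelled, 8.22 to 8.42 on eosinophil-labelled, 7.67 to 8.22 on neutrophil-labelled and 6.89 to 7.13 on macrophage-labelled arrays, and its part was not tested. Icam4, the neighbour of Icam1, was called higher in eosinophils than in macrophages (1.5, limma adjusted p = 0.00964), as Icam1 was. Its levels were low, at 5.86 and 6.01 against 4.38 and 4.5. The macrophage-labelled values of Icam4 and Jam2 lay below their array medians of 5.48 and 5.53.

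Among 18 genes for proteins that regulate integrin activation from inside the cell, not all of them activators, Fermt2 (kindlin-2) was called higher in T2M than in each other label, at 2.21 against eosinophils, 2.57 against neutrophils and 3.12 against macrophages (limma adjusted p = 0.0102, 0.0117 and 0.0011). Its level was 6.91 to 7.85 on T2M-labelled arrays and at most 5.46 elsewhere. All values elsewhere lay below their array medians, which ran from 5.48 to 5.61. The 6 fibroblast and stromal markers had means per array of 5.90 to 7.07 on T2M-labelled and 5.10 to 5.78 on eosinophil-labelled arrays. They were at 4.84 to 5.65 on neutrophil-labelled and 4.53 to 4.76 on macrophage-labelled arrays. The part of such cells in the Fermt2 values was not tested. Skap2, an adaptor, was lower in T2M than in eosinophils (-1.36, limma adjusted p = 0.0162), and Rassf5 (RAPL), a Rap1 effector, was higher in T2M than in neutrophils (1.85, limma adjusted p = 0.0141) and in eosinophils than in neutrophils (1.77). Cyth1, a regulator of beta2 integrins, was higher in T2M (1.84), eosinophils (2.04) and neutrophils (1.92) than in macrophages, and Cib1 (-2.51) and Itgb1bp1 (-1.56) were lower in T2M than in macrophages.

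Of 17 genes that signal from engaged adhesion receptors, 2 were called lower and 1 higher in T2M than in eosinophils, beside 2.89% and 1.57% of all genes. The called genes were Vav1 (-2.37, limma adjusted p = 0.0105), a signalling protein of blood cells, Lcp2 (-2.23, limma adjusted p = 0.0159), which encodes the adaptor SLP-76, and Parvb (1.29, limma adjusted p = 0.0491). Fcer1g (-1.49) and Zyx (-1.48) were not called there. Vcl (vinculin) was higher in T2M than in neutrophils (1.71) and macrophages (1.27), and Vav1 was lower than in macrophages (-1.61). Parvb was lower in eosinophils than in neutrophils (-1.60, limma adjusted p = 0.0229).

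**Figure D5:**
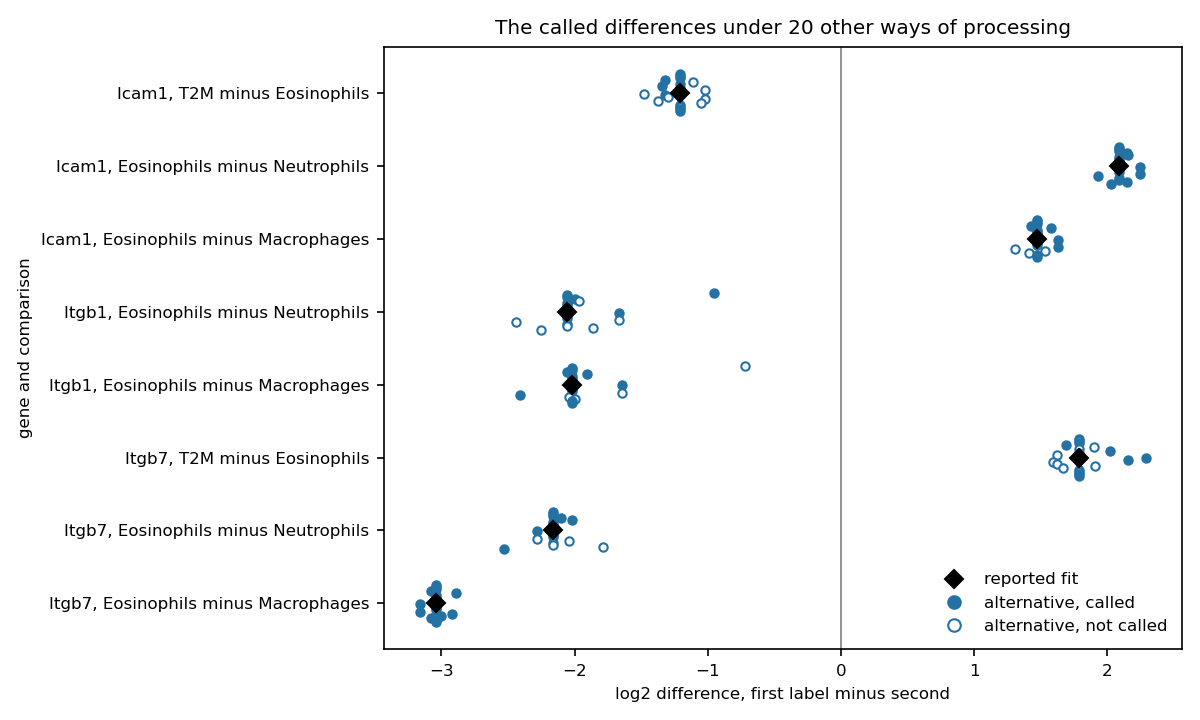
Each of the 8 called differences (diamond, log2) with its value under 20 alternatives (circles, filled where adjusted p was under 0.05), of which 9 leave out 1 array. All circles lie on the same side of 0 as their diamond, and Itgb7 for eosinophils minus macrophages is the 1 difference with only filled circles, while some circles lie behind a diamond.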

How the data were processed

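The authors deposited 1 log2 expression value for each probe set on each array. RMA, affy and limma are named in the submitters' processing notes. Versions and settings are not given in the sources used here, and 50 ng of RNA was amplified per array, per the labels' protocols. RMA values are relative, so levels of different probe sets were set against each other only to choose the 1 kept per gene (highest mean over the arrays).

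Of 45101 probe sets, 64 controls were left out. The platform annotation gave 1 symbol for 34945, several for 932 and none for 9160, and 34741 matched RefSeq (GRCm38.p6) by gene ID. Each of 18193 genes was represented by that probe set. Label means were compared with limma 3.58.1 in R 4.3.3 (lmFit, eBayes, two-sided, all 9 arrays, 5 residual degrees of freedom, prior of 3.26 degrees of freedom and SD 0.328), with Benjamini-Hochberg adjustment over all genes of a comparison. Precision is limited by the few arrays: the median SE was 0.308 for comparisons with T2M and 0.337 for others. The procedure was tested on simulated data.

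The members, lists and tests were chosen with earlier results of these data known. Named genes are all 9 members, up to 4 called and 2 uncalled genes of largest difference per list and comparison described, and the 3 nearest profiles per member. The text prints part of them. Alternatives varied the probe set kept, a dim-gene filter, scaling between arrays, moderation, array weights, arrays in the fit, replicate block and leaving out arrays. Figures used matplotlib 3.10.9 in Python 3.11.15.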

Additional observations from a re-analysis of the deposited data

How the results depend on the processing

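Over 20 alternatives to the reported processing, 9 of which leave out 1 array, the 54 differences of the 9 genes gave 1080 values. Of these 953 kept their direction and side of the threshold, 50 lost a call, 44 gained one and 33 changed sign, none of them a called difference and none larger than 0.38 in size as reported. With 2 or 3 arrays a label, calls near the threshold moved with single arrays and with which arrays share the spread; where a fit had fewer arrays it had fewer residual degrees of freedom, and for the other alternatives the cause was not tested. The alternative without both arrays of high actin 3′ to 5′ difference was chosen after seeing the data. A lone array left in a label is assumed to vary like the others. The counts below stand beside counts over all 18193 genes (reported fit in brackets), which moved too. With array weights these were 1426 for T2M minus eosinophils (812), 10163 for T2M minus macrophages (3123) and 6400 for eosinophils minus macrophages (3163). With only the arrays of both labels they were 397, 4988 and 5219, and 215 for eosinophils minus neutrophils (1433). For T2M minus macrophages they were 3789 with the mean of probe sets and 3224 with a common median.

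The count of called genes for T2M minus eosinophils, 2 as reported, was 1 with every probe set tested on its own, with a trended robust prior and without both high-actin arrays, 0 with quantile normalization, with only the arrays of both labels, with the replicate block and with the macrophage arrays averaged, and 4 with array weights. For T2M minus macrophages, 0 as reported, it was 3 with the mean of probe sets, 2 with each probe set on its own, a common median, only both labels or without both high-actin arrays, and 6 with array weights. For eosinophils minus neutrophils, 3 as reported, it was 0 with only both labels and 1 with the macrophage arrays averaged. For eosinophils minus macrophages, 3 as reported, it was 5 with array weights, only both labels or without both high-actin arrays, and 1 with the macrophage arrays averaged. Without 1 array the counts ran from 0 to 3 for T2M minus eosinophils, 0 to 3 for T2M minus macrophages, 1 to 4 for eosinophils minus neutrophils, 1 to 4 for eosinophils minus macrophages and 0 to 2 for neutrophils minus macrophages.

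Sign changes for T2M minus eosinophils were Itgax at 0.21 (quantile) and 0.03 (replicate block) and Itgb2 at -0.03 (common median). Without 1 array, Itgax ran from -0.21 to 0.11, Itga4 from -0.21 to 0.78 and Itgb2 from -0.02 to 0.16. For T2M minus neutrophils they were Itgam at 0.15 (quantile), 0.25 (array weights) and 0.54 (without both high-actin arrays), Itgax at -0.05, Itga4 at -0.28 and Itgb7 at 0.00 (all without both high-actin arrays), Itga4 at -0.16 (array weights) and Itgal at -0.38 (mean of probe sets). Without 1 array, Itgam ran from -0.49 to 0.54, Itgax from -0.28 to 0.52, Itgal from -0.33 to 0.48, Itga4 from -0.28 to 0.24 and Itgb7 from -0.74 to 0.00. Itgal gave -0.42 for eosinophils minus macrophages with the mean of probe sets, and Itgb1 -0.07 for neutrophils minus macrophages with a common median. Without 1 array, eosinophils minus neutrophils ran from -0.24 to 0.56 for Itgax, -0.73 to 0.26 for Itga4 and -0.02 to 0.31 for Itgb2, Selplg for eosinophils minus macrophages from -0.12 to 0.88, and Itgb1 for neutrophils minus macrophages from -0.17 to 0.23.

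The replicate numbers of the labels were not taken as pairs, since deviations of same-numbered arrays correlated at 0.462 for T2M and eosinophils but at -0.096 to 0.099 for the other pairs of labels. These were deviations of replicates 1 and 2 from the mean of those 2 arrays, without T2M replicate 3. Replicate 1 of T2M and of eosinophils were the arrays with the high actin 3′ to 5′ difference. With the replicate block, 0 of the 9 genes were called for T2M minus eosinophils in place of 2, and 360 of all genes in place of 812.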
